A study of Mus musculus with 5 samples.

Results

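Single-cell RNA sequencing of mouse mammary tumours was examined for 8 of the 24299 genes that held counts in at least 1 of 5 libraries. The 8 genes were Malat1, Neat1, Kcnq1ot1, Meg3, Gm26917, Gm42418, AY036118 and Lars2. They were chosen by name, with their relation to the mitochondrial share and the count total of a cell already known from these libraries, so their values are given as a description and no p-value is given for them. The name under which they were grouped, nuclear noncoding RNAs and damaged-cell transcripts, covers 7 of the 8 by gene type, since Lars2 is a protein-coding gene. Meg3 departed from it over all cells, where its level rose with the mitochondrial share in 3 of 5 libraries. Within fibroblast-like cells it rose in 5 of 5 libraries and within epithelial-like cells, on few counts, in 4 of 5. These are ratios of summed counts. Across single cells the rank correlation of Meg3 with the mitochondrial share was -0.30 to -0.20 over all cells and -0.07 to 0.04 in epithelial-like cells.

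The series compared sequencing platforms on tumours of PyMT mice, which develop mammary carcinomas driven by the polyoma middle T oncogene. Digested tumours were enriched for viable cells and loaded on 10x Chromium, which traps cells in droplets, or on BD Rhapsody (whole transcriptome assay), which traps them in microwells. The libraries were 2 fresh 10x samples (fresh 10x 1 and fresh 10x 2), 1 10x sample titled 24 h (stored 10x), a BD Rhapsody sample titled fresh (BD 1) and a BD Rhapsody sample titled fresh whose deposited files are named for 24 h (BD 2). Because its labels conflict, BD 2 was not merged with BD 1, and it is described with no storage state. According to the protocol, low-quality material stood overnight at 4 °C and was used once flow cytometry had shown a loss of viability of at least 20%. All 5 libraries came from the same tumour model with no other genotype or agent, and the labels name neither the strain, the age and number of the mice nor the promoter of the transgene. Nothing in the labels says that the fresh 10x libraries came from separate animals, so a spread between them may be technical. The Drop-seq libraries that the design mentions were not analysed here.

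A unique molecular identifier (UMI) tags each captured RNA molecule, and levels are UMIs of a gene per 10000 UMIs. Values listed without library names follow the order fresh 10x 1, fresh 10x 2, stored 10x, BD 1, BD 2, and those of the fresh pair follow its replicate numbers. The 5 libraries held 15958 cells in all and between 29166129 and 59957945 UMIs each, with a median of 8926 to 12474 UMIs per cell. The median mitochondrial share, the percent of a cell's UMIs from the mitochondrial genome, was 6.14 and 6.99 in the fresh 10x pair, 7.17 in stored 10x, and 15.2 and 19.8 in BD 1 and BD 2. Cells with at least 20% mitochondrial UMIs, called high-mitochondrial below, made up 3.71%, 6.39%, 14.3%, 31.6% and 49.3% of these libraries in the same order. The smallest deposited cell held 103, 102, 1029, 2577 and 1776 UMIs, so the selection of cells before deposit differed between libraries. Clustering was done without the 8 genes and without mitochondrial genes, and the clusters were named from marker genes. Epithelial-like cells were the most numerous class, with 1424, 1419, 3163, 2937 and 3430 cells.

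Long noncoding RNAs such as Malat1 and Neat1 stay in the nucleus. Malat1 gathers at nuclear speckles, where splicing factors are stored, and Neat1 is the scaffold of paraspeckles. Kcnq1ot1 and Meg3 are imprinted RNAs, the first a silencer of its own chromosomal domain and the second made from the maternal copy of the Dlk1-Meg3 domain. Ribosomal RNA is transcribed in the nucleolus and normally lacks a poly(A) tail. When the plasma membrane of a cell fails, cytosolic mRNA can leak out while mitochondria and the nucleus are retained, and single-cell studies therefore use the mitochondrial share as a quality measure. Lars2 is the mitochondrial leucyl-tRNA synthetase, an enzyme encoded in the nucleus.

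Positions and sequences were read from the GENCODE M21 annotation and transcripts of GRCm38, the assembly called mm10 in the submitters' processing notes. Malat1 is a lincRNA gene at chr19:5795690-5802672 on the minus strand, and Neat1 lies at chr19:5824708-5845478 on the same strand. Kcnq1ot1 covers chr7:143203458-143296549 on the minus strand, antisense to the potassium channel gene Kcnq1 that it overlaps. Meg3 lies at chr12:109541001-109571726 on the plus strand. Gm26917 (chr17:39843013-39846341, plus strand) ends 616 bases before Gm42418 (chr17:39846958-39848788, plus strand). AY036118 (chr17:39847113-39848035) lies wholly within Gm42418 on the other strand, an overlap of 923 bases. Both lie within CT010467.1 (chr17:39846353-39848827, minus strand), which is annotated as ribosomal RNA, and all 31-base words of AY036118 occur in its transcript on the same strand. CT010467.1 is listed at 0 in all 5 libraries. Whether the deposited counts used strand is not given in the sources used here. Reads of Gm42418, AY036118 and the ribosomal RNA gene may therefore be confused. Lars2 covers chr9:123366927-123462666 on the plus strand.

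Both chemistries capture RNA by its poly(A) tail with an oligo(dT) primer, which can also anneal to runs of A inside a transcript, so the stretches around such runs are shown with the longest run in capitals. The A run of the Malat1 stretch (chr19:5795980-5796079, minus strand) ends 298 bases before the end of the annotated transcript. That of the Kcnq1ot1 stretch (chr7:143226925-143227025, minus strand) ends 23487 bases before the end of its transcript. The last pair shows the same span, chr17:39847137-39847202, as it reads in Gm42418 on the plus strand and in AY036118 on the minus strand, with the longest A run of Gm42418 within that overlap, and its complement, in capitals.
Malat1: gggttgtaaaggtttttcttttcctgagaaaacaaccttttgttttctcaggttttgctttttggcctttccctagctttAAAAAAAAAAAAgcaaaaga
Kcnq1ot1: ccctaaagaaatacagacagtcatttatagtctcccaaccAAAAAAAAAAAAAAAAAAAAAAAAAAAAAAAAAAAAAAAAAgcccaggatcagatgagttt
Gm42418: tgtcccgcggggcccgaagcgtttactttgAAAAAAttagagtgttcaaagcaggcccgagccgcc
AY036118: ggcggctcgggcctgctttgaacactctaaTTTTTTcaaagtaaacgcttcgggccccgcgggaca

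Runs of 10 or more A were searched on the transcript strand of the longest transcript of each gene. Malat1 held 1 such run of 12 A, Kcnq1ot1 held 10 with a longest of 41, and Meg3 held 6 with a longest of 16. Neat1, Gm26917, Gm42418, AY036118 and Lars2 held none, with longest runs of 7, 4, 6, 4 and 6 A. Of all 55341 genes, 9.74% held such a run, and the share rises with transcript length. Among transcripts within 0.8 to 1.25 times the length of Malat1 36.6% held one, of Neat1 46.3%, of Meg3 49.1% and of Gm42418 9.53%. Only 3 genes, Kcnq1ot1 included, lay within that range of Kcnq1ot1, and 100% of them held one. These matches describe the sequence and do not show where priming took place.

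Over all cells of a library, 5 of the 8 genes were lower in both BD Rhapsody libraries than in all 3 10x libraries, namely Malat1, Neat1, Kcnq1ot1, Meg3 and AY036118. Among all 16973 genes tested 27.4% showed that order. Lars2 was the only one of the 8 with both BD levels above all 10x levels, against 40.6% of all genes, and Gm26917 and Gm42418 overlapped between platforms. Stored 10x lay above both fresh 10x libraries for Malat1, Neat1, Gm26917, Gm42418 and Lars2 and below them for Kcnq1ot1, Meg3 and AY036118, orders that 32.5% and 42.4% of all genes showed. The selection of the 8 genes used these levels, so nothing is read from these shares. The plot of levels by library and cell class shows the same values beside those of the cell classes. In sums over a library, fewer cells of a type and less RNA per cell cannot be told apart.

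**Figure D1:**
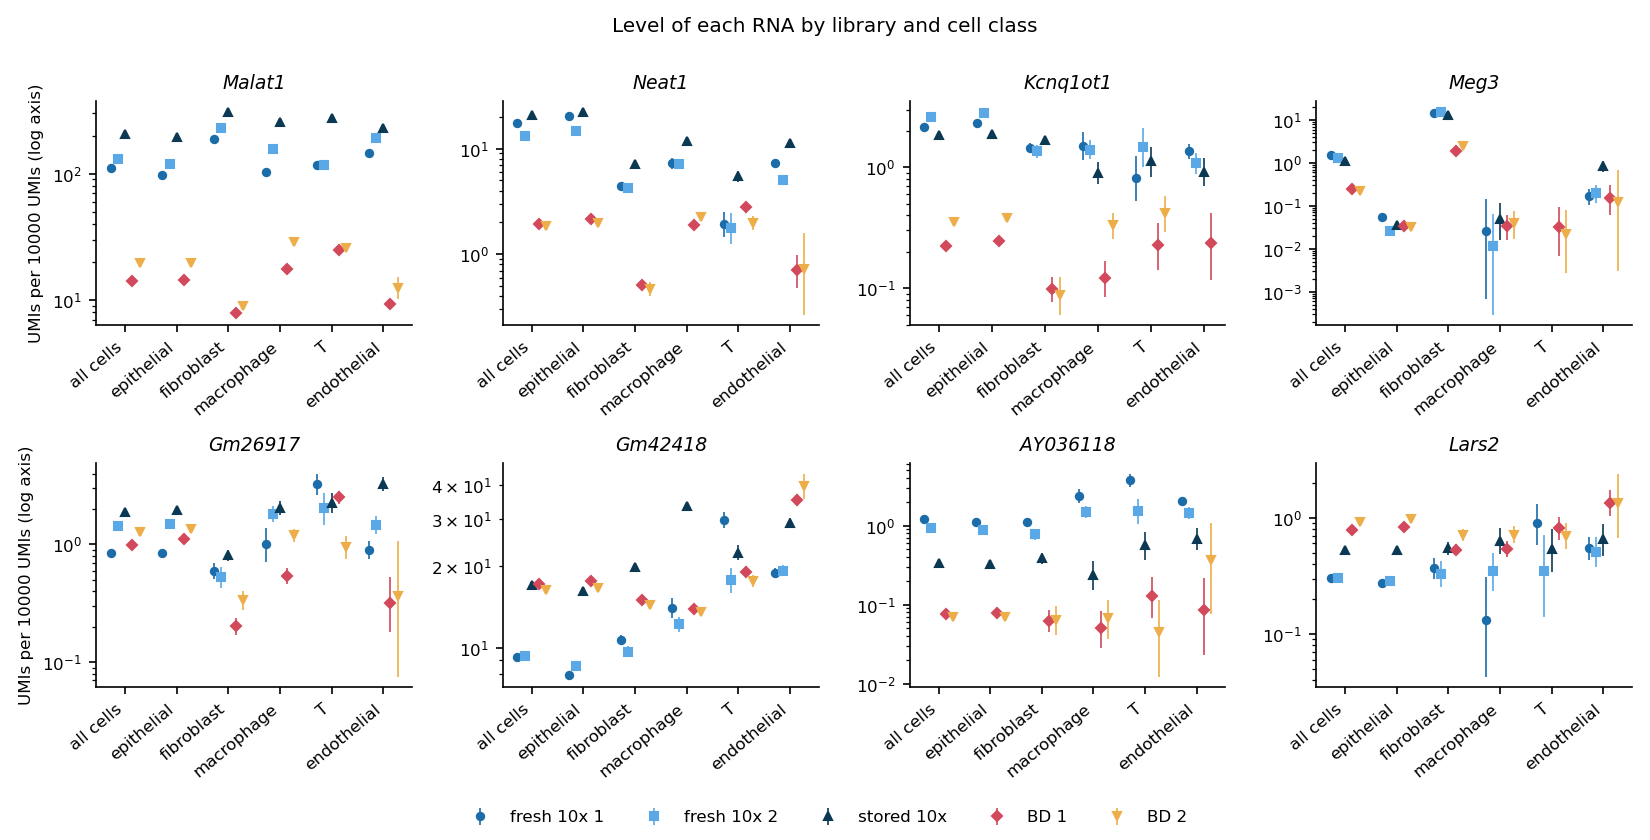
Level of each of the 8 genes (UMIs per 10000 UMIs, log axis) in the 5 libraries, over all cells and within cell classes, with exact 95% Poisson intervals that cover counting error only. Values of 0 are not drawn. Malat1 lies between 111 and 207 in the 10x libraries over all cells and at 14.0 and 19.4 in the BD libraries, while Meg3 is highest in fibroblast-like cells among the classes drawn.

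The level of Malat1 was 111 and 131 UMIs per 10000 in the fresh 10x pair, 207 in stored 10x, and 14.0 and 19.4 in BD 1 and BD 2. BD 1 was 8.64-fold and BD 2 6.23-fold below the fresh 10x mean of 121 ± 14.0 (SD, n = 2), and stored 10x was 1.71-fold above it. On the log2 scale of the edgeR model the difference between BD 1 and fresh 10x was -3.25 ± 0.21 (SE). A UMI of Malat1 was nonetheless present in 95.9% to 98.7% of the cells of every library. With 2000 UMIs drawn from each cell it would be found in 98.3%, 98.9% and 99.3% of the cells of fresh 10x 1, fresh 10x 2 and stored 10x, and in 75.9% and 76.8% of those of BD 1 and BD 2.

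The level of Neat1 was 17.7 and 13.3 in the fresh 10x pair, 20.7 in stored 10x, and 1.94 and 1.87 in BD 1 and BD 2. Fresh 10x was thus 7.99-fold above BD 1 and 8.29-fold above BD 2, and stored 10x was 1.34-fold above fresh 10x, with a level above both fresh libraries. In epithelial-like cells the platforms did not overlap either, at 20.3, 14.7 and 22.4 in the 10x libraries and 2.14 and 1.97 in the BD libraries. T-like cells differed from this order. There the level of Neat1 was 1.93 and 1.78 in the fresh 10x pair, 5.47 in stored 10x, and 2.78 and 1.99 in BD 1 and BD 2, so both BD libraries lay above both fresh 10x libraries, BD 2 by less than the counting error. T-like cells numbered 89, 41, 120, 109 and 149.

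Kcnq1ot1 was at 2.16 and 2.62 UMIs per 10000 in the fresh 10x pair, 1.84 in stored 10x, and 0.221 and 0.354 in BD 1 and BD 2. Its fresh 10x mean was 10.8-fold above BD 1 and 6.74-fold above BD 2. Stored 10x lay just below the fresh pair. A UMI was present in 63.1%, 68.5% and 60.5% of the 10x cells and in 14.1% and 16.8% of the BD cells.

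Meg3 was at 1.54 and 1.28 in the fresh 10x pair, 1.10 in stored 10x, and 0.253 and 0.216 in BD 1 and BD 2 over all cells. Most of it came from stromal classes. In fibroblast-like cells its level was 14.5, 15.3 and 13.3 in the 10x libraries and 1.93 and 2.45 in the BD libraries, and in mural-like cells 15.1, 22.0 and 21.8 against 1.79 and 3.93. Epithelial-like cells held 0.054 and 0.027 in the fresh 10x pair, 0.036 in stored 10x, and 0.034 and 0.032 in BD 1 and BD 2, so the platforms overlapped there.

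The share of fibroblast-like cells with a Meg3 UMI was 82.8%, 92.9%, 77.6%, 63.5% and 68.4% in fresh 10x 1, fresh 10x 2, stored 10x, BD 1 and BD 2. In epithelial-like cells, used here as the background, it was 3.58%, 2.54%, 3.48%, 3.75% and 2.59%. The median depths were 12501, 14385, 10907, 18703 and 14630 UMIs in fibroblast-like cells and 11976, 12763, 10209, 12631 and 9365 UMIs in epithelial-like cells. The shares in fibroblast-like cells exceeded that background in all 5 libraries, and with the BD cells at the greater depth.

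Fibroblast-like cells formed a cluster led by Efemp1 and Clec3b (31, 39, 213, 225 and 164 cells) and a cluster led by Cilp and Spon1 (172, 88, 148, 115 and 73 cells), and the latter held most fibroblast-like cells of the fresh 10x libraries alone. Meg3 was lower in BD within each of them. Its level in the Efemp1 cluster was 14.6, 13.7 and 10.3 in the 10x libraries and 1.58 and 2.07 in the BD libraries. In the Cilp cluster it was 14.4, 16.0 and 18.2 against 2.72 and 3.46. Malat1 in these clusters lay between 166 and 312 in the 10x libraries and between 7.04 and 11.7 in the BD libraries. The fresh 10x mean of Malat1 was 26.6-fold above BD 1 in all fibroblast-like cells, a wider gap than over all cells. Their median mitochondrial share was 3.84%, 3.90%, 4.19%, 6.07% and 7.62%, the BD libraries being higher here too.

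The transcripts of the ribosomal RNA locus on chromosome 17 did not move together between libraries. Gm42418 was at 9.24 and 9.32 in the fresh 10x pair, 17.1 in stored 10x, and 17.3 and 16.3 in BD 1 and BD 2. The fresh pair stood below the other libraries, and stored 10x lay between BD 2 and BD 1. Stored 10x was 1.84-fold, BD 1 1.86-fold and BD 2 1.75-fold above the fresh mean of 9.28 ± 0.054 (SD, n = 2).

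AY036118 was at 1.21 and 0.924 in the fresh 10x pair, 0.334 in stored 10x, and 0.0761 and 0.0692 in BD 1 and BD 2. The fresh pair, lowest for Gm42418, was highest here. The fresh mean exceeded stored 10x 3.20-fold, BD 1 14.1-fold and BD 2 15.4-fold. Per UMI of AY036118 there were 7.62 UMIs of Gm42418 and 10.1 in the fresh 10x pair, 51.2 in stored 10x, and 227 and 235 in BD 1 and BD 2. The ratio therefore differed between the overlapping genes of opposite strand within 10x as well as between platforms, and whether the counting of reads on this overlap changed between libraries was not tested.

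Gm26917, which shares no 31-base word with Gm42418, was at 0.843 and 1.44 in the fresh 10x pair, 1.89 in stored 10x, and 0.995 and 1.27 in BD 1 and BD 2. Both BD libraries lay within the fresh pair. The level of BD 1 relative to the fresh 10x mean was -0.20 on the log2 scale over all cells and -1.10 when cells under 500 UMIs or over 20% mitochondrial UMIs were left out, so its standing between platforms depended on those cells.

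Lars2 was at 0.305 and 0.303 in the fresh 10x pair, 0.532 in stored 10x, and 0.783 and 0.925 in BD 1 and BD 2. BD 1 was 2.57-fold, BD 2 3.04-fold and stored 10x 1.75-fold above the fresh mean. In epithelial-like cells the levels kept that order, at 0.276, 0.284, 0.527, 0.832 and 0.966. A UMI of Lars2 was found in 31.3%, 30.9% and 40.1% of the 10x cells and in 56.3% and 53.3% of the BD cells.

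The 8 genes together held 1.44%, 1.60% and 2.51% of all UMIs in fresh 10x 1, fresh 10x 2 and stored 10x, and 0.355% and 0.404% in BD 1 and BD 2. Malat1 supplied 77.1%, 81.8% and 82.7% of the UMIs of the 8 genes in the 10x libraries and 39.4% and 48.1% in the BD libraries. Gm42418 supplied 48.6% of them in BD 1 and 40.3% in BD 2, against 5.82% to 6.83% on 10x.

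The next comparison was between cells of high and low mitochondrial share within a library. In the comparisons by mitochondrial share, UMI total and epithelial-like cluster, levels are given per 10000 non-mitochondrial UMIs, so that the mitochondrial share itself does not dilute them. In epithelial-like cells, 7 of the 8 genes were higher in high-mitochondrial cells than in the other cells in every library, all except Meg3. The same 7 genes had this order over all cells. Of all 14228 genes tested 15.3% showed such a ratio above 1 in all 5 libraries. The relation was part of what chose the genes, so nothing is read from that count. The high-mitochondrial epithelial-like cells numbered 57 and 101 in the fresh 10x pair, 473 in stored 10x, and 1074 and 1862 in BD 1 and BD 2. Across single epithelial-like cells the rank correlation with the mitochondrial share was positive in all 5 libraries for Malat1, Kcnq1ot1, Gm26917 and Gm42418 only. For AY036118 it was 0.17, 0.19, 0.02, -0.06 and -0.06, and for Lars2 0.14, 0.21, 0.26, -0.03 and -0.01. For Neat1 it was -0.03, 0.18, 0.20, 0.26 and 0.31.

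**Figure D2:**
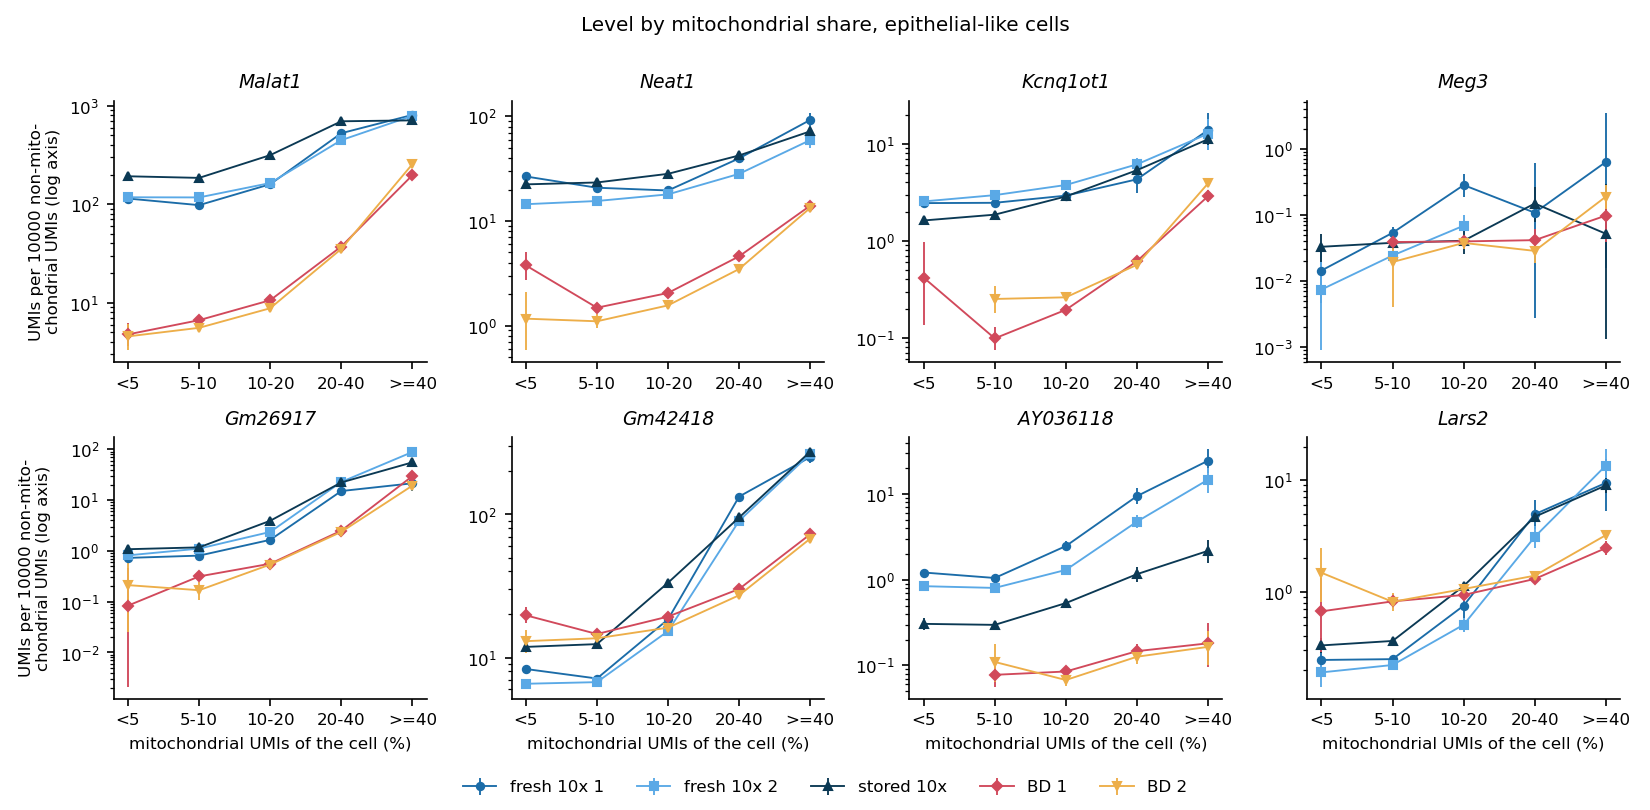
Level of each gene (UMIs per 10000 non-mitochondrial UMIs, log axis) in epithelial-like cells binned by mitochondrial share, 1 line per library, with exact 95% Poisson intervals that cover counting error only. Values of 0 are not drawn. Malat1 rises from 4.77 to 197 in BD 1 and from 114 to 806 in fresh 10x 1, and the lines of Gm42418 start higher in BD and end lower than on 10x.

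For Malat1 the ratio of high-mitochondrial to other epithelial-like cells was 5.50 and 3.81 in the fresh 10x pair, 3.44 in stored 10x, and 5.42 and 7.27 in BD 1 and BD 2. The platforms overlapped in this ratio. In cells of 5 to 10% mitochondrial UMIs its level was 97.8, 117 and 185 in the 10x libraries and 6.65 and 5.56 in the BD libraries, and in cells of 40% or more it was 806, 789 and 709 against 197 and 255. The gap between platforms was thus narrower in the cells of highest mitochondrial share. In BD 1 53.4% and in BD 2 76.3% of the Malat1 UMIs of epithelial-like cells lay in high-mitochondrial cells, which held 17.5% and 30.7% of the non-mitochondrial UMIs. On 10x these cells held 2.63%, 4.62% and 7.58% of the Malat1 UMIs.

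Neat1 rose less steeply, with ratios of 2.19, 1.95 and 2.01 on 10x and 2.84 and 3.07 in BD 1 and BD 2. Kcnq1ot1 had ratios of 2.29, 2.20 and 3.30 on 10x and 4.75 and 3.75 on BD. For both genes the BD ratios lay above all 3 10x ratios, an order that 16.2% of all genes showed. In the cells of 40% or more Kcnq1ot1 reached 13.9, 12.7 and 11.1 on 10x and 2.89 and 3.91 on BD, from 2.47, 2.96, 1.86, 0.0989 and 0.252 in the cells of 5 to 10%.

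Gm26917 had the steepest rise of the 8 genes in every library but fresh 10x 1, where Lars2 exceeded it. Its ratio was 19.3 and 22.2 in the fresh 10x pair, 18.9 in stored 10x, and 10.3 and 8.67 in BD 1 and BD 2. From cells of 5 to 10% to cells of 40% or more it went from 0.807 to 21.4, from 1.11 to 88.5, from 1.17 to 55.3, from 0.314 to 29.7 and from 0.168 to 19.3 in these libraries. Over the 5 libraries its log2 change was 3.60 ± 0.22 (SE). High-mitochondrial cells held 68.5% of its epithelial-like UMIs in BD 1 and 79.4% in BD 2.

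The ratio of Gm42418 was 19.3 and 13.0 in the fresh 10x pair, 8.64 in stored 10x, and 1.86 and 2.01 in BD 1 and BD 2. AY036118 had ratios of 10.3, 6.32 and 4.13 on 10x and 1.80 and 1.87 on BD, and Lars2 had 20.7, 15.1 and 12.1 on 10x and 1.55 on both BD libraries. For these genes and Gm26917 both BD ratios lay below all 3 10x ratios, as for 26.4% of all genes. The level of Gm42418 in cells of 5 to 10% was 7.14, 6.73 and 12.4 on 10x and 14.6 and 13.6 on BD, and in cells of 40% or more it was 252, 265 and 275 against 72.7 and 67.8. BD thus started above 10x in the cells of low mitochondrial share and ended below it. The same crossing held for Lars2, which was at 0.250, 0.221, 0.363, 0.821 and 0.814 in the lower bin and at 9.45, 13.5, 8.97, 2.47 and 3.22 in the highest.

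**Figure D3:**
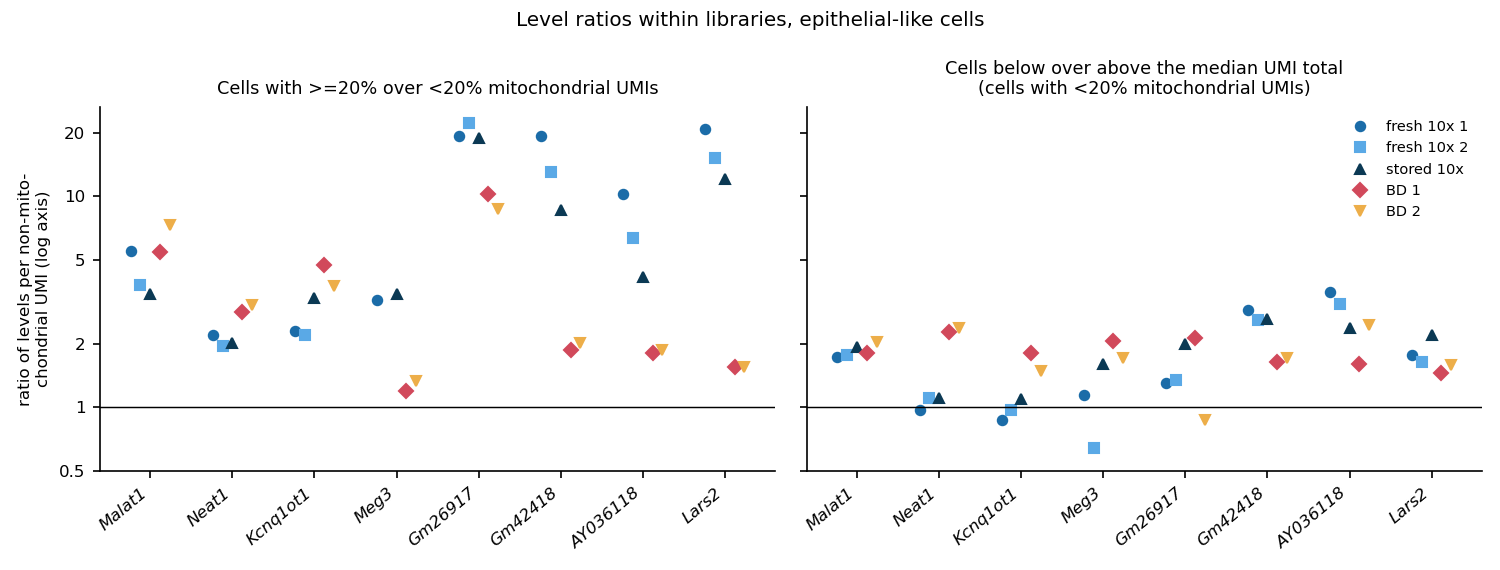
Ratio of each gene in epithelial-like cells with at least 20% mitochondrial UMIs to those below (log axis), and ratio of cells below the median UMI total to those above among cells under 20%, 1 point per library. Neat1 and Kcnq1ot1 have BD points above the 10x points in the mitochondrial ratio, and Gm26917, Gm42418, AY036118 and Lars2 have them below.

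Other measures moved with the mitochondrial share. The median UMI total of the cells of 40% or more was 2098 and 2514 in the fresh 10x pair, 2074 in stored 10x, and 5012 and 4407 in BD 1 and BD 2. Their median share of UMIs from ribosomal protein genes was 3.31%, 4.25%, 4.45%, 3.24% and 3.61%, against 21.2%, 21.2%, 22.3%, 12.2% and 12.7% in cells of 5 to 10%. This share is of all UMIs, mitochondrial ones included, so the mitochondrial share itself dilutes it. The platforms also differ in the mitochondrial share at which their cells centre, with medians in epithelial-like cells of 6.69%, 7.54% and 7.68% on 10x and 16.6% and 21.1% on BD. A fixed limit of 20% therefore separates different parts of each distribution, and the part of this in the platform difference was not tested.

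The relation was also computed within bins of UMI total, inside which cells still differ in depth. In 15 strata of library and UMI bin, the ratio was above 1 in all 15 for Malat1 (1.52 to 7.89), Neat1 (1.64 to 4.04), Kcnq1ot1 (1.87 to 8.09), Gm26917 (1.60 to 19.1) and Gm42418 (1.31 to 4.79). It was above 1 in 14 for AY036118 and for Lars2. For Meg3 it was above 1 in 4 of the 11 strata that gave a ratio. Strata of 1 library share its cells' preparation and are not independent.

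Meg3 went its own way over all cells, while in epithelial-like cells its ratio was above 1 in 4 of 5 libraries and 0 in the other. Across single epithelial-like cells its rank correlation with the mitochondrial share was 0.04, -0.02, -0.02, -0.07 and -0.02. Over all cells that correlation was negative in every library, at -0.30 to -0.20. Over all cells its ratio was 9.08 and 1.39 in the fresh 10x pair, 1.16 in stored 10x, and 0.266 and 0.414 in BD 1 and BD 2, so 10x lay above 1 and BD below it. Fibroblast-like cells, its main source, had a Meg3 ratio of 13.2, 8.17 and 3.18 on 10x and 4.17 and 5.68 on BD, above 1 in 5 of 5 libraries. Only 7, 3, 18, 6 and 18 fibroblast-like cells were high-mitochondrial, and they held 150, 53, 119, 19 and 90 Meg3 UMIs. In the same cells Malat1 had ratios of 8.35, 9.28, 2.29, 7.15 and 13.9.

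In macrophage-like cells Malat1 was also higher in high-mitochondrial cells in the 4 libraries that held any, with ratios of 3.75 and 3.36 in fresh 10x 2 and stored 10x and of 7.57 and 7.75 in BD 1 and BD 2. Gm26917 had ratios of 10.5, 9.76, 4.15 and 5.94 there and Gm42418 had 6.14, 5.44, 1.91 and 2.18. As in epithelial-like cells, Malat1 was steeper on BD and Gm42418 steeper on 10x in these 4 libraries. The high-mitochondrial macrophage-like cells numbered 9, 31, 17 and 55.

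The UMI total of the cell was the other measure of interest. Among epithelial-like cells under 20% mitochondrial UMIs, cells below the median UMI total were compared with those above it. Malat1, Gm42418, AY036118 and Lars2 were higher in the shallow cells in all 5 libraries, as 19.5% of all 13677 genes were. The ratio of Malat1 was 1.72, 1.77 and 1.94 on 10x and 1.81 and 2.04 on BD, so the platforms overlapped. Gm42418 had 2.89, 2.60 and 2.62 on 10x and 1.64 and 1.70 on BD, and Lars2 had 1.76, 1.64, 2.20, 1.46 and 1.59, both with BD below 10x, an order shown by 14.1% of all genes.

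Neat1 did not follow the UMI total on 10x. Its ratio of shallow to deep cells was 0.97 and 1.11 in the fresh 10x pair, 1.10 in stored 10x, and 2.28 and 2.38 in BD 1 and BD 2. Kcnq1ot1 behaved alike, at 0.87, 0.98 and 1.09 on 10x and 1.82 and 1.49 on BD, and with Meg3 these were the genes whose BD ratios exceeded all 10x ratios, as for 14.9% of all genes.

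In bins of UMI total, again under 20% mitochondrial UMIs, Gm42418 fell from 33.7 per 10000 non-mitochondrial UMIs in cells of 2000 to 5000 UMIs to 4.68 in cells of 20000 or more in fresh 10x 1. It fell from 36.9 to 5.41 in fresh 10x 2, from 46.5 to 10.2 in stored 10x, from 33.5 to 15.5 in BD 1 and from 31.4 to 12.5 in BD 2. Among these cells the BD levels lay near those of fresh 10x and below stored 10x in the lower bin, and above all 3 10x levels in the highest. In high-mitochondrial cells of 2000 to 5000 UMIs, by contrast, Gm42418 was at 155, 143 and 143 on 10x and at 67.0 and 58.0 on BD. Across epithelial-like cells the rank correlation of Gm42418 with the UMI total was -0.75, -0.65, -0.62, -0.48 and -0.54 in the 5 libraries, over 1424 to 3430 cells each. For Malat1 it was -0.36, -0.47, -0.40, -0.50 and -0.52. These correlations share the UMI total in both measures. With the mitochondrial share the rank correlation of Malat1 was 0.17, 0.35 and 0.46 on 10x and 0.57 and 0.64 on BD, while that of the mitochondrial share with the UMI total was -0.04, -0.16, -0.34, -0.51 and -0.60.

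Among the epithelial-like clusters, a cluster of 29, 41, 242, 197 and 372 cells stood out for these genes. Its leading genes were Zfp949, Gigyf1, Gm47283, Ccnl2, Pnisr, Slc22a17, Srek1, Fam193b, Echdc3 and Ints6l. Among them Ccnl2, Pnisr and Srek1 act in or with pre-mRNA splicing. The median mitochondrial share of the cluster was 36.8%, 29.5%, 32.0%, 47.5% and 53.6%. Malat1 was at 704, 578 and 781 UMIs per 10000 non-mitochondrial UMIs there on 10x and at 205 and 300 on BD. Gm42418 was at 185, 123, 114, 69.8 and 68.8, and Gm26917 at 21.5, 33.9, 29.8, 25.8 and 20.1. Gm26917 was thus similar in this cluster on both platforms. This cluster had the highest level of 7 of the 8 genes, all except Meg3, among the 11 or 12 epithelial-like clusters of every library. Of all 14228 genes tested 5.75% did so, and since the selection of the 8 genes used this relation, nothing is read from the count.

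Another shallow cluster, led by Rbm25, Wfdc18 and Tomm7 and of 46, 40, 207, 228 and 253 cells, separated the genes. Its median mitochondrial share was 0.38%, 0.299%, 5.99%, 27.6% and 32.4%, very low in fresh 10x and high in BD. Malat1 there was at 30.1, 66.5, 158, 20.6 and 32.9 per 10000 non-mitochondrial UMIs, and Gm42418 at 26.0, 24.0, 59.3, 27.1 and 31.2. On the same scale the whole epithelial-like class had 105, 129, 214, 17.5 and 25.03 of Malat1 and 8.51, 9.27, 17.7, 21.3 and 20.99 of Gm42418. Malat1 was thus lower in this cluster than in the class in all 3 10x libraries and higher in both BD libraries, while Gm42418 was higher in all 5.

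**Figure D4:**
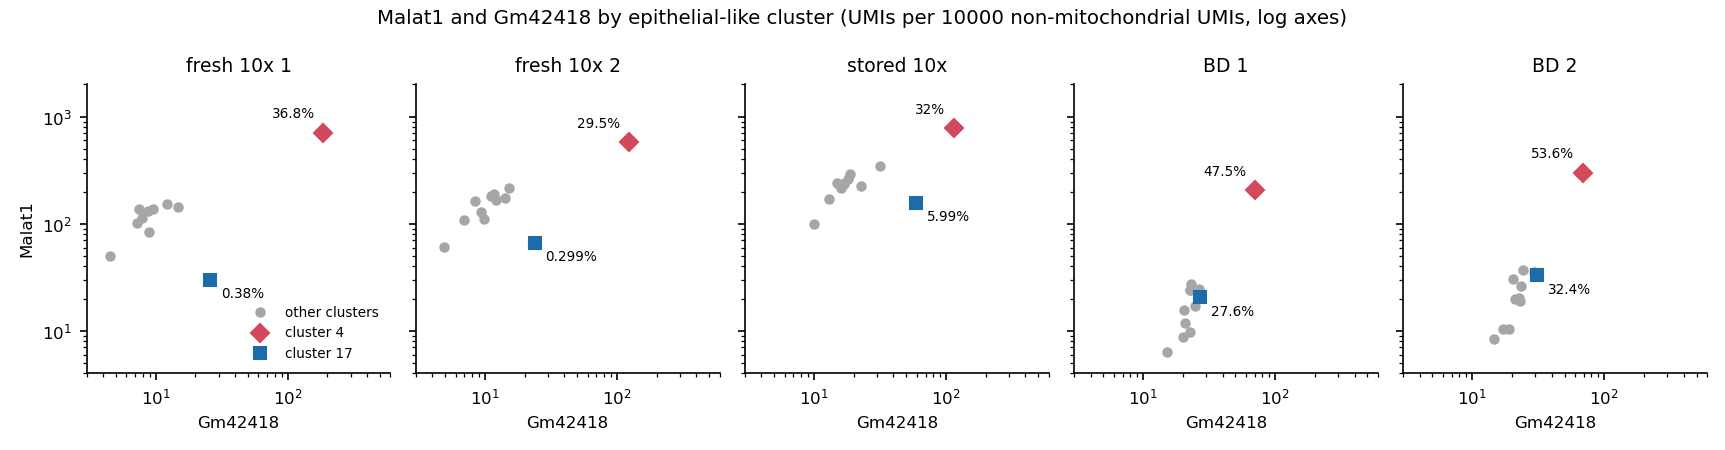
Malat1 against Gm42418 (UMIs per 10000 non-mitochondrial UMIs, log axes), 1 point per epithelial-like cluster and library. Labels give the median mitochondrial share of the cluster led by Zfp949 and Ccnl2 (cluster 4) and of the cluster led by Rbm25 (cluster 17), which lie at the top right of each library and, on 10x, at high Gm42418 with low Malat1.

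Cell by cell, Malat1 and Gm42418 rose and fell together. Their rank correlation across epithelial-like cells averaged 0.51 over the 5 libraries (0.44 to 0.58) and 0.41 among cells under 20% mitochondrial UMIs. Malat1 and Neat1 had a mean of 0.43. Among 7604 genes found in at least 10% of these cells in every library, the genes most like Malat1 were Xist at 0.55, Gm42418 at 0.51 and Neat1 at 0.43. Those most like Neat1 were Malat1, Jund at 0.27 and Xist at 0.27, and those most like Kcnq1ot1 were Malat1 at 0.21, Neat1 at 0.20 and Xist at 0.19. For Gm26917 they were Malat1 at 0.28, Gm42418 at 0.22 and Xist at 0.20, and for Gm42418 they were Malat1, Xist at 0.35 and Gm26917 at 0.22. Lars2 had weak values throughout, led by Gm42418 at 0.16, Gm26917 at 0.13 and Snrnp70 at 0.11. Meg3, found in 2.54% to 3.75% of these cells by library, did not enter this comparison. AY036118 did not enter either, since it was found in 8.10% to 80.1% by library and so missed the limit of 10% in every library. All pairs share the depth and the library of their cells.

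Other transcripts of similar kinds were compared between high-mitochondrial and other epithelial-like cells by edgeR's quasi-likelihood test with Benjamini-Hochberg adjustment over all genes, with library as a block. The test called 7.82% of the 14228 genes higher and 7.45% lower, and the median log2 change of all genes was -0.01. Of the other nuclear long noncoding RNAs, 4 of the 7 tested were higher and none was lower, with a median of 0.78, while over all cells 4 of 9 were higher and 2 lower, with a median of 0.43. Xist, which coats the inactive X chromosome, rose by 1.20 ± 0.22 (SE, adjusted p = 0.00311), and Snhg11 by 1.14 ± 0.17 (adjusted p = 0.000874). Tug1 at 0.25 and H19 at -0.38 did not pass. Over all cells the test called 1084 of 15502 genes higher and 1848 lower.

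mRNAs known for retained or detained introns, which are kept in the nucleus until spliced, were higher for 14 of 22 genes and lower for none, with a median of 0.66. Pnisr rose by 1.24 (adjusted p = 0.000426), Ccnl2 by 1.07 (adjusted p = 0.000775) and Fnbp4 by 1.02 (adjusted p = 0.00123). Srrm1 at 0.04 and Ddx5 at -0.28 did not pass. The list was chosen with earlier results of these data known, and Ccnl2 and Pnisr are also leading genes of the cluster described above, so its count is no independent evidence. Over all cells, where the test called 18.9% of all genes (1084 higher and 1848 lower), 19 of the 22 were higher and none was lower.

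Of 10 genes of paraspeckle proteins, partners of Neat1, none was higher and 4 were lower, with a median of -0.30, and over all cells 2 were lower. Hnrnpa1 fell by 0.87 (adjusted p = 0.0103), Nudt21 by 0.69 (adjusted p = 0.0211), Hnrnpk by 0.57 (adjusted p = 0.0418) and Nono, a core paraspeckle protein, by 0.56 (adjusted p = 0.0403). Among abundant cytosolic mRNAs, 8 of 15 were lower and none higher, with a median of -0.69, and Fth1, the ferritin heavy chain, fell by 1.21 (adjusted p = 0.0174). Of 93 ribosomal protein genes 10 were lower and 1 higher, with a median of -0.53.

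The mitochondrial aminoacyl-tRNA synthetases, the enzyme family of Lars2, were listed together with the cytosolic Lars. This list showed no shared change, with 1 of 17 higher (Vars2, 0.70), 1 lower (Fars2, -0.58) and a median of -0.02. Lars2 itself stood at 2.29 ± 0.42 (SE). None of the 7 tested genes of the Dlk1-Meg3 and Kcnq1 domains passed, with Kcnq1 at 0.21 and Cd81 at -0.43. Of the ribosomal RNA or repeat-derived genes 3 of 23 could be tested and all 3 were higher, namely Gm10800 at 1.91 ± 0.44 (adjusted p = 0.0108), Gm26870 at 1.78 ± 0.34 (adjusted p = 0.00393) and Gm15564 at 0.73 ± 0.20 (adjusted p = 0.0221). Gm15564 rested on the BD libraries, with 1749 and 1791 UMIs there and 0, 1 and 8 UMIs in the 10x libraries. Of 5 snoRNA host genes tested 1 was higher, Snhg20 at 1.19 ± 0.14 (adjusted p = 0.00015).

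**Figure D5:**
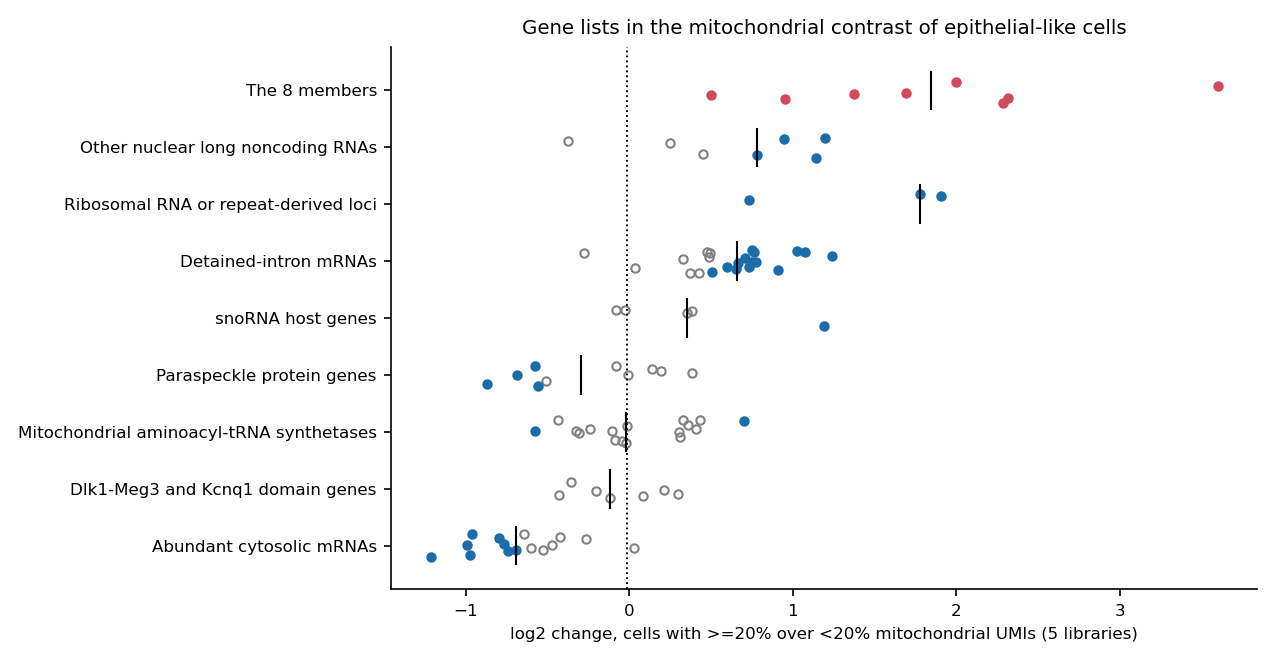
Log2 change of single genes between epithelial-like cells with at least 20% and those with under 20% mitochondrial UMIs, by gene list, over 5 libraries. Filled points passed an adjusted p of 0.05, the 8 genes are drawn in red with no call, bars are list medians and the dotted line is the median of all genes at -0.01. Detained-intron mRNAs centre at 0.66 and paraspeckle protein genes at -0.30.

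The platform difference of this change, BD minus 10x, was tested for the same lists by an added term in the edgeR model. It was called for 21.8% of all genes, higher for 15.2% and lower for 6.59%, with an all-gene median of 0.07. Ribosomal protein genes were higher on BD for 82 of 93 and lower for none, with a median of 1.08, and abundant cytosolic mRNAs for 12 of 15, with a median of 0.87. Detained-intron mRNAs were lower for 8 of 22 and higher for none, with a median of -0.24, and paraspeckle protein genes lower for 3 and higher for 2 of 10, with a median of -0.56. None of the 7 other nuclear long noncoding RNAs passed.

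With the UMI total, under 20% mitochondrial UMIs, 4 of the 7 other nuclear long noncoding RNAs were higher in shallow cells and none lower, where the test called 19.6% of all genes higher and 22.1% lower. Xist rose by 0.62 ± 0.06 (SE, adjusted p = 6.76e-07). Detained-intron mRNAs were higher for 9 and lower for 2 of 22, and paraspeckle protein genes were lower for 8 of 10.

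Between fresh platforms, BD 1 against fresh 10x over whole libraries, the test called 20.1% of all genes higher and 18.6% lower in BD 1, with a spread that rests on the fresh pair alone. Of the other nuclear long noncoding RNAs 2 of 9 tested were higher and 3 lower, with a median of -0.03, against a median of -2.88 for the 8 genes. In epithelial-like cells the test called 43.6% of all genes, and 1 of 7 of these RNAs was higher and 3 were lower. Xist was at 15.6, 13.2, 12.9, 5.02 and 4.93 UMIs per 10000 of all UMIs in the 5 libraries, and its log2 change was -1.66 ± 0.17 (SE, adjusted p = 0.00349). Detained-intron mRNAs were higher for 3 and lower for 7 of 22. Each of these lists held genes higher and genes lower in BD 1. The 8 genes were chosen with these levels known, so nothing is read from their median beside the lists. Among the 8, Gm42418 and Lars2 stood higher in BD 1, at 0.76 and 1.23. All 13 mitochondrial mRNAs were tested, and 11 were higher and none lower in BD 1.

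Between stored and fresh 10x the test called 0.147% of all genes over whole libraries (25 genes, with 2694 at an unadjusted p under 0.05) and 2.23% in epithelial-like cells. Over whole libraries none of 22 detained-intron mRNAs and none of 9 other nuclear long noncoding RNAs passed edgeR's test, with medians of 0.05 and -0.10. In epithelial-like cells 2 of the 22 detained-intron mRNAs were higher, and 1 of 7 other nuclear long noncoding RNAs was lower. There the count of all genes called was 348, and it was 44 without BD 1 and 40 without BD 2, which belong to neither group. Stored 10x was 1 library, so the spread in these tests rests on the fresh pair alone. The 8 genes had a median log2 change of 0.64 over whole libraries, with AY036118 lowest at -1.61 ± 0.21 (SE) and Gm42418 highest at 0.95 ± 0.12 (SE).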

How the data were processed

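Counts are the deposited UMI counts per gene and cell, raw whole numbers in the 5 main matrices, per the file headers. The authors had selected the cells. Cell Ranger 3.0.1 and mm10 are named in the submitters' processing notes without saying for which platform, and for the annotation and strand setting of the counting the labels are silent (not given in the sources used here). Spellings of 1534 gene names were merged (41028 names left). Cells with at least 200 genes were clustered in scanpy 1.11.5 (Leiden resolution 1, 21 clusters, doublets called by scrublet left out: 21, 7, 2, 0 and 1 cells) after removal of the 8 genes and mitochondrial genes. A class needed at least 3 markers found in at least 25% of its cells. The rates of called doublets were too low in most libraries to show that the caller worked, so doublets may remain. Levels, bins and ratios are sums over cells, with exact intervals at 95% that cover counting error only. The libraries shared 1, 1, 5 and 24 barcodes in 4 pairs, with 0 identical profiles.

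Genes were tested on counts summed per library, or per library and cell bin, by edgeR 4.0.16 (TMM, low-count filter, quasi-likelihood test, Benjamini-Hochberg adjustment over all genes, threshold 0.05), with DESeq2 1.42.0 as an alternative. Simulated counts on the real genes showed recovery of 64 of 100 genes changed 2-fold and 100 of 100 changed 4-fold for BD 1 against fresh 10x, among 16439 genes. For the mitochondrial contrast in epithelial-like cells it was 100 of 100 at both sizes among 13842 genes. The simulation gave all genes the same spread and changed well-counted genes only. Of the unchanged genes 10 were called in the first contrast and 11 in the second. The recovery therefore does not show how often changes of real genes would be found. All 8 genes passed the low-count filters. The genes and lists were chosen with earlier results of these data known. Named beside the 8 genes were the 3 most correlated genes of each, and list genes past the threshold and at least 2-fold changed in the mitochondrial contrast, plus 2 per list that did not pass. Other list genes named were chosen after their values were seen. Drop-seq libraries, pooled and subset matrices were not used here.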

Additional observations from a re-analysis of the deposited data

Results flagged for a closer look

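The change with mitochondrial share in epithelial-like cells was set apart between platforms for 7 of the 8 genes by the added term of the edgeR model (BD minus 10x, log2 scale, 2 BD against 3 10x libraries), at the threshold that called 21.8% of all 14228 genes. The genes were chosen with the relation known on both platforms, so the differences are a description and nothing is read from the count. The rise was steeper on BD for Malat1 by 1.07 ± 0.23, for Neat1 by 1.00 ± 0.18 and for Kcnq1ot1 by 1.03 ± 0.12. It was less steep on BD for Gm26917, with a difference of -0.63 ± 0.15 (SE) that became 0.57 at a limit of 10%, for Gm42418 with -2.26 ± 0.21, for AY036118 with -1.30 ± 0.18 and for Lars2 with -2.70 ± 0.11. The median change of all genes was 0.07, and 82 of 93 ribosomal protein genes differed in the direction of Malat1. The ratios of single libraries overlap between platforms for Malat1. Platform, the mitochondrial share at which the cells centre and the smallest cell total deposited cannot be told apart here.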

How the results depend on the processing

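The ratio of high-mitochondrial to other cells was above 1 in all 5 libraries for 7 of 8 genes, over all cells and under each alternative run. The share of all genes was computed for epithelial-like cells in the main run alone, at 15.3%. The 8 genes were chosen with this relation known, so nothing is read from the count. The count of genes called for stored 10x against fresh 10x was 25, and 347 with DESeq2, 67 with DESeq2 size factors, 2 with no filter on low counts and 13 with BD 2 grouped by its title, and 9 to 41 with 1 library left out (9 without fresh 10x 2, 41 without fresh 10x 1). In epithelial-like cells BD 1 against fresh 10x gave 6801 calls and 3824 with DESeq2, and stored against fresh gave 348 and 139, and 40 to 1209 with 1 library left out (44 without BD 1, 40 without BD 2, 1209 and 1029 without fresh 10x 1 and fresh 10x 2). The mitochondrial contrast gave 2932 calls over all cells, and 1593 to 3577 when 1 library was left out, fewest without BD 2. In epithelial-like cells it gave 2173, with 4261 at a limit of 30% and 1138 to 2432 with 1 library left out, fewest without fresh 10x 2. Its platform difference gave 3099 calls, with 1543 by DESeq2, 433 at a limit of 10%, 1469 at 30%, and 943 to 3119 with 1 library left out (943 without BD 1, 1032 without BD 2, 1411 without stored 10x). The cause was not tested.

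Signs turned for Gm26917 and Meg3. Gm26917 in BD 1 against fresh 10x over whole libraries was -0.34, and -0.43 to 0.33 with 1 library left out (0.33 without fresh 10x 2). Gm26917 in BD 1 against fresh 10x, epithelial-like cells, was -0.19 on the log2 scale, -0.33 to 0.44 with 1 library left out (0.44 without fresh 10x 2), 0.0082 with BD 2 grouped by its title, and 0.0036 in a fit of fresh 10x and BD alone, added after seeing the data. Its platform difference of -0.63 became 0.57 at a limit of 10%. Meg3 in epithelial-like cells was -0.39 in BD 1 and -0.14 in stored 10x against fresh 10x, with -0.84 to 0.22 and -0.59 to 0.47 when 1 library was left out, in both cases highest without fresh 10x 1. Meg3 over all cells was -0.16 in the mitochondrial contrast, 0.67 at 30%, and between -0.79 and 0.29 with 1 library left out (0.29 without BD 1, 0.17 without BD 2). Its platform difference of -0.71 became 0.67 at 30%, 0.78 with the cells of at least 2577 UMIs, and -0.98 to 0.40 with 1 library left out, highest without stored 10x. Of the other values of single genes, 692 were the same, 50 moved, 16 gained and 17 lost a call.

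The replicate numbers name no shared animal or day. With the replicate block the platform contrast by title called 9523 genes over whole libraries and 8698 in epithelial-like cells, against 9010 and 8494 without the number. Gm26917 stood at 0.0417 with the block. With BD 2 as a group of its own, leaving out a fresh 10x library leaves no residual degrees of freedom, so that these fits grouped BD 2 with BD 1 by its title and assumed that a lone library varies like the BD pair. They were added after seeing the data, as were those without a library of neither group. Depth limits Meg3 in epithelial-like cells (68 to 171 UMIs per library) and the high-mitochondrial cells of other classes.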
